A study of Rattus norvegicus with 16 samples.

Results

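The genes described here are 10 immediate early response genes, Fos, Fosb, Jun, Junb, Egr1, Nr4a1, Atf3, Ier2, Ier3 and Dusp1, in the proximal femur of 4 inbred rat strains, out of 14217 genes named on the array. They were chosen by name, with earlier results of these data known. Every probe set whose only platform symbol was 1 of the 10 was taken, which gave 14 of the 31042 non-control probe sets on the array. Of these, 12 probe sets for 9 genes passed the filter on low signals. Jun had 3 of them and Dusp1 had 2, so the 12 are not 12 independent genes. The samples were 16 arrays of total RNA, with 4 each for Fischer 344 (F344), Lewis (LEW), Copenhagen 2331 (COP) and Dark Agouti (DA) rats aged 4 weeks. No treatment or altered allele was named for any strain, and the labels gave neither sex nor whether the 4 arrays of a strain came from separate animals, so the p-values refer to the spread among these arrays, which may be technical. The study compared the strains for genes of a chromosome 4 locus found in a cross of F344 and LEW, and in the reference gene table the 10 genes lay on chromosomes 1, 5, 6, 7, 10, 13, 18, 19 and 20, with Junb and Ier2 both on 19.

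Immediate early genes are transcribed within minutes of a stimulus such as a growth factor, mechanical load, stress or injury, without new protein synthesis, and their messengers are short-lived. Kinase cascades reach them through transcription factors already bound at their promoters, among them CREB at cyclic AMP response elements and SRF at CArG boxes. Fos, Fosb, Jun, Junb and Atf3 encode leucine zipper proteins that pair into AP-1 and related dimers, Egr1 and Nr4a1 encode a zinc finger factor and an orphan nuclear receptor, and Dusp1 encodes a phosphatase that switches the MAP kinases off again. In bone, Fos is required for osteoclasts to form and AP-1 proteins act in osteoblasts, and in dissected tissue this class of genes is also known to respond to the dissection itself.

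The RefSeq promoter table of the assembly GRCr8 held 6 of the 10 genes (Fosb, Junb, Egr1, Nr4a1, Ier2 and Dusp1). The promoters of Nr4a1, Dusp1 and Ier2 are shown because they held a full cyclic AMP response element or, in Nr4a1, 4 half-sites of it, and because Nr4a1 and Dusp1 varied together between arrays. Each runs 5′ to 3′ over the 250 bases before the transcription start, with matches to the element TGACGTCA and to its half-site TGACG, searched on both strands, in capitals. The regions are chr7:134259888-134260137, chr10:17184603-17184852 and chr19:40399123-40399372, each on the plus strand.
Nr4a1: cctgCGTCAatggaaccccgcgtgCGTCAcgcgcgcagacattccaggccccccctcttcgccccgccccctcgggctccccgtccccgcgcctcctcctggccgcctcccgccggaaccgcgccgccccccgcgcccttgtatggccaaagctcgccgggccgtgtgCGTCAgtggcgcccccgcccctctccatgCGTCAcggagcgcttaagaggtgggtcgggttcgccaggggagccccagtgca
Dusp1: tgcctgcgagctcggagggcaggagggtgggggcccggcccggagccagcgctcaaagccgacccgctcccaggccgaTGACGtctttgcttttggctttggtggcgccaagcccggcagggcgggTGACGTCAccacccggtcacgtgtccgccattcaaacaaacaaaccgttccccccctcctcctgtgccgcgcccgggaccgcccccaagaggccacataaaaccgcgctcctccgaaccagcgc
Ier2: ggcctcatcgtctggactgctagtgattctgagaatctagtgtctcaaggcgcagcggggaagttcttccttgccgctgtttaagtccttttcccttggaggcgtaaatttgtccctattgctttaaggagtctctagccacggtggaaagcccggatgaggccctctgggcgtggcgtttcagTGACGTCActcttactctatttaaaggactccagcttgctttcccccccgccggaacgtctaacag

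Nr4a1 held 4 half-sites, at 246, 226, 82 and 53 bases before its start. Dusp1 held 1 full element, 124 bases before its start, and a separate half-site at 172 bases. Ier2 held 1 full element at 66 bases. The full element, which contains a half-site on each strand, occurred in 1.59% of 33469 promoter windows of this length, and the half-site in 18.2%. Egr1 held 2 CArG boxes, the element bound by SRF, at 105 and 83 bases before its start, an element found in 1.50% of the windows, and 2 half-sites. Junb held 1 half-site, and Fosb held no match to any of the motifs searched. The sites GCGNGGGCG (EGR, 4.29% of windows) and TGANTCA (AP-1, 6.34%) were searched in the same way; Nr4a1 held 1 of the former, on the reverse strand, and none of the 6 promoters held the latter. A match describes letters in the window and not occupancy in these femora, and the lack of one says nothing about the factor. Ier2, with the full element, correlated with Nr4a1 at r = 0.20 and with Dusp1 at r = 0.033 in deviations from the strain means. Jun and Atf3, which varied with Nr4a1 and Dusp1, had no promoter in the table. A link between the element and the variation between arrays was not tested.

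Signals were MAS5 values on a linear scale with an array median of 303 to 325. Osteoblast markers were measured in the femora as labelled, and all 10 listed markers named on the array were above the filter. So were all 10 for cartilage, all 11 for skeletal muscle, all 10 for erythroid cells and all 5 for B lymphoid cells. In RNA of a whole tissue piece, fewer cells of a type and less RNA per cell cannot be told apart. The ratio of the 3' to the 5' control signal was 0.970 to 1.06 for Gapdh and 1.84 to 2.32 for actin over the 16 arrays.

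F344 had the highest mean for 9 of the 12 probe sets, of Fos, Jun, Nr4a1, Atf3, Ier3 and Dusp1. Every kept probe set of Jun and Dusp1 was among them, and this count was not made over all tested probe sets. The moderated F-test of limma over the 4 strains called 5 of the 12, those of Fos, Egr1, Atf3 and Ier3 and the probe set 1368146_at of Dusp1, where 31.2% of all 18625 tested probe sets were called. Between F344 and LEW, 3 of 12 were called, all higher in F344, against 13.8% called and 6.53% called higher in F344 among all tested. Every F344 array was above every LEW array for 8 of 12, where this held for 9.15% of all tested. Between F344 and COP, 4 of 12 were called, all higher in F344, against 19.9% called and 9.40% called higher in F344, and 3 of 12 had every F344 array above every COP array, against 11.7%. Between F344 and DA, 4 of 12 were called, all higher in F344, against 16.1% called and 7.66% called higher in F344, and 3 of 12 had every F344 array above every DA array, against 10.8%. The median log2 difference over the 12 was 0.43, 0.32 and 0.37 for F344 minus LEW, COP and DA, where the median over all tested probe sets was 0.0081, -0.0096 and -0.0017. These 3 comparisons use the same 4 F344 arrays. The genes were chosen with earlier results of these data known, so the shares beside them are descriptions and not a test.

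Away from F344 the directions were mixed. Between LEW and COP, 5 of 12 were called (13.7% of all tested), with Dusp1 (1368146_at) and Atf3 higher in LEW and Fos, Egr1 and Ier3 higher in COP. Between LEW and DA, 1 of 12 was called (10.4% of all tested), Ier3, lower in LEW. Between COP and DA, 2 of 12 were called (11.9% of all tested), Ier2 higher in COP and the Dusp1 probe set 1368146_at higher in DA; the other Dusp1 probe set, 1368147_at, was not called there (0.06, limma adjusted p = 0.832). The counts depended on single arrays. The F344 and LEW count was 5 without LEW replicate 4, DA replicate 1 or DA replicate 3, and 6 without COP replicate 1 or COP replicate 4. The F344 and COP count ranged from 3 to 6 and was 6 without COP replicate 4. The F344 and DA count was 2 without F344 replicate 2, F344 replicate 4, DA replicate 1 or DA replicate 2. It was 3 without F344 replicate 1, 5 without DA replicate 3 and 6 without LEW replicate 1. The LEW and COP count was 3 without LEW replicate 1, LEW replicate 3, COP replicate 2 or COP replicate 3. The COP and DA count was 1 without COP replicate 3, DA replicate 3 or DA replicate 4, and 3 without LEW replicate 2 or COP replicate 4. The single LEW and DA call was lost without LEW replicate 1, LEW replicate 3, DA replicate 1, DA replicate 3 or DA replicate 4, with Egr1 called in its place without DA replicate 1. The F-test count was 8 without COP replicate 4.

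**Figure D1:**
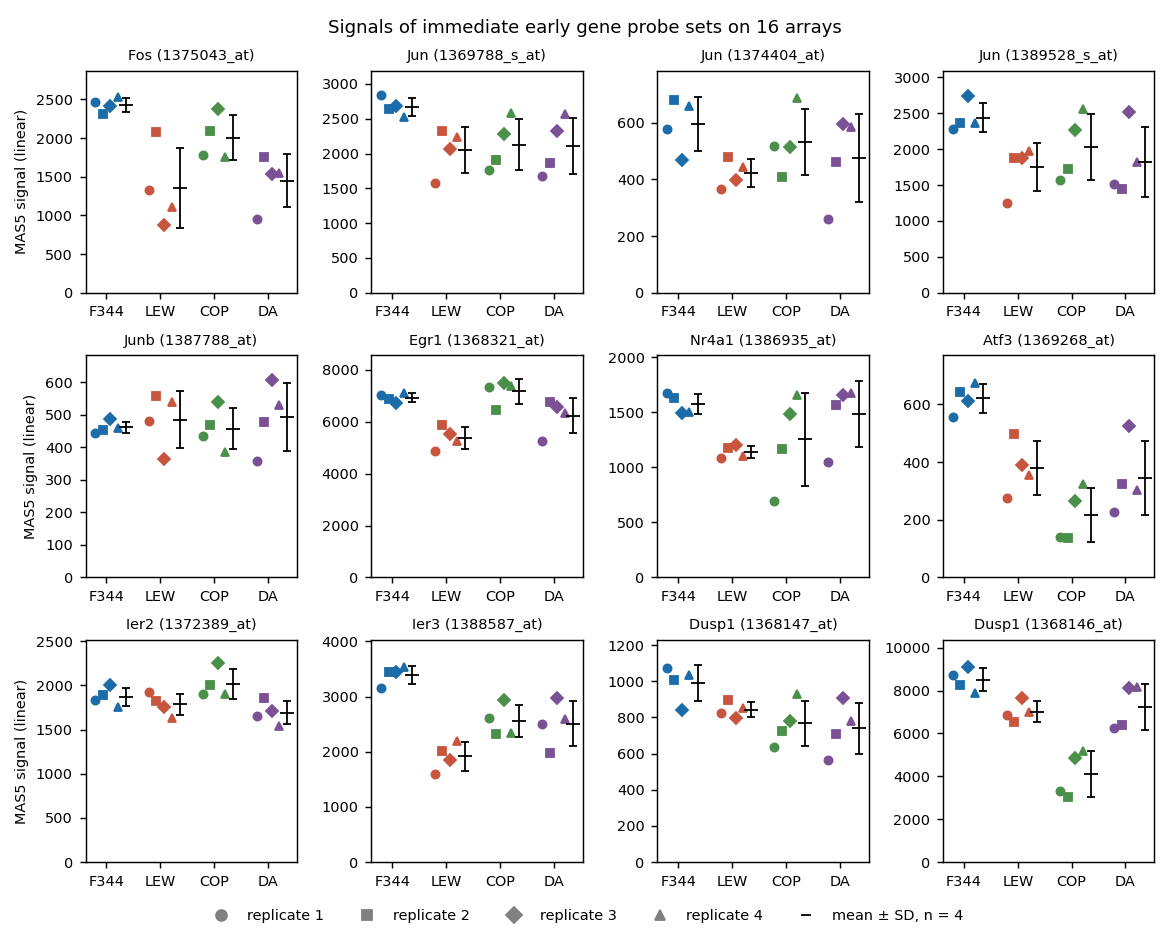
Signal of each of the 12 kept probe sets (vertical axes, linear MAS5 signal) on the 16 arrays, by strain, with the 4 arrays of a strain as coloured symbols and the mean and SD of the 4 as a black bar. The F344 arrays lie close together and high for Fos, Atf3 and Ier3, while single arrays such as COP replicate 1 for Nr4a1 or DA replicate 1 for Fos fall far below the rest of their strain.

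Fos, the partner of Jun proteins in AP-1, was highest in F344. Its signals were 2470, 2310, 2414 and 2527 in F344 and 1331, 2081, 880.8 and 1115 in LEW. In COP they were 1788, 2091, 2379 and 1759, and in DA 960.1, 1761, 1531 and 1548. All F344 arrays lay above all LEW and all DA arrays, but overlapped those of COP, and LEW replicate 2 stood well above the other LEW arrays. Fos was 1.89-fold higher in F344 than in LEW, a log2 difference of 0.92, with SE 0.19 (limma adjusted p = 0.00255), and 1.72-fold higher than in DA, a log2 difference of 0.78, with SE 0.19 (limma adjusted p = 0.00845). Both calls held under all 27 alternatives. F344 and COP differed by 0.29 (SE 0.19, adjusted p = 0.341), which was not called, except with the 8 arrays of those strains alone (0.0327, in a range of 0.0327 to 0.523). Fos was lower in LEW than in COP by a log2 difference of -0.63 (SE 0.19, adjusted p = 0.0337), a call that was lost without LEW replicate 1 (adjusted p = 0.0561), LEW replicate 3 (0.141), LEW replicate 4 (0.0801), COP replicate 2 (0.0783) or COP replicate 3 (0.105). It was also lost with array weights (0.109), no filter (0.0548), no intensity trend (0.0749), robust moderation (0.0691) or the 8 arrays of the 2 strains alone (0.0657), in a range of 0.00114 to 0.141 over the alternatives. Between COP and DA the log2 difference was 0.49 (adjusted p = 0.109), and it was called when LEW replicate 2 was left out (0.0417, in a range of 0.0417 to 0.323).

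A second Fos probe set, 1371283_at, designed on another transcript record, had signals of 11.97 to 121.3 over the 16 arrays and was below the filter. Fosb, a close relative of Fos, had a single probe set, 1373759_at, also below the filter, with means of 155.6 ± 25.7 in F344 and 103.5 ± 47.7 in COP, and of 135.4 ± 78.5 in LEW and 131.9 ± 34.9 in DA (SD, n = 4). Its arrays spanned 31.03 to 205.5 and overlapped between all strains, and neither probe set was tested in the main fit.

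Jun, the AP-1 subunit that can pair with itself, was not called in any comparison at any of its 3 probe sets. The probe set 1369788_s_at had signals of 2837, 2634, 2685 and 2524 in F344 and 1575, 2324, 2062 and 2237 in LEW. It had 1760, 1904, 2274 and 2577 in COP and 1684, 1867, 2319 and 2564 in DA. The F344 arrays lay above every LEW array, and the single highest arrays of COP and DA, replicate 4 in both, reached the F344 range. The log2 differences from F344 were 0.40 for LEW (SE 0.13, limma adjusted p = 0.0557), 0.34 for COP (0.0822) and 0.36 for DA (0.0759). The probe set 1389528_s_at gave 0.50 (SE 0.17, adjusted p = 0.0557), 0.29 (0.263) and 0.45 (0.0771), and 1374404_at, made from the same sequence record as 1389528_s_at, gave 0.49 (SE 0.21, 0.136), 0.18 (0.627) and 0.39 (0.237). All 3 probe sets placed the strain means in the order F344, COP, DA and LEW, and no difference among COP, DA and LEW was called in any of them.

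Single arrays moved the Jun differences over the threshold. For F344 minus LEW, 1369788_s_at was called without LEW replicate 2 (0.0442), LEW replicate 4 (0.0443), COP replicate 1 (0.0445), COP replicate 4 (0.0437), DA replicate 1 (0.0419) or DA replicate 4 (0.0426), in a range of 0.0228 to 0.188 over the alternatives. The probe set 1389528_s_at was called without LEW replicate 4 (0.0409), COP replicate 1 (0.0424), COP replicate 4 (0.0438) or DA replicate 3 (0.0294), in a range of 0.00948 to 0.189, and 1374404_at without DA replicate 1 (0.0401, in a range of 0.0309 to 0.281). For F344 minus COP, 1369788_s_at was called without LEW replicate 1 (0.0474) or COP replicate 4 (0.0314), in a range of 0.0266 to 0.235. For F344 minus DA it was called without LEW replicate 1 (0.0432) or DA replicate 4 (0.0292), in a range of 0.0292 to 0.218, and 1389528_s_at without LEW replicate 1 (0.0447) or DA replicate 3 (0.0138), in a range of 0.0138 to 0.229. In the F-test, 1369788_s_at (adjusted p = 0.0764) was called without COP replicate 4 (0.0411) or DA replicate 4 (0.0381), in a range of 0.033 to 0.201, and 1389528_s_at (0.0881) without DA replicate 3 (0.0202), in a range of 0.0142 to 0.226. With the 8 arrays of a strain pair alone, 1369788_s_at was called for F344 minus LEW (0.0228), COP (0.0266) and DA (0.0317), 1389528_s_at for F344 minus LEW (0.0164) and DA (0.0311), and 1374404_at for F344 minus LEW (0.0309). Array weights called 1369788_s_at for F344 minus COP (0.0453), for F344 minus DA (0.0418) and in the F-test (0.0417), and 1389528_s_at for F344 minus LEW (0.0396). With the replicate number added to the fit (the replicate block), 1369788_s_at was called for F344 minus LEW (0.0256), COP (0.0408) and DA (0.0377). Its F-test was called as well (0.033). The block also called 1389528_s_at for F344 minus LEW (0.00948) and DA (0.0163) and in the F-test (0.0142).

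Junb, which often opposes Jun in the same dimers, had the least difference between strains of the 12 probe sets. Its signals were 444.5, 453.8, 486.2 and 459.1 in F344 and 481.4, 556.6, 364.2 and 539.5 in LEW. They were 436, 468.5, 538.1 and 385.8 in COP and 357.8, 478.3, 608.4 and 530.7 in DA. The 4 F344 arrays sat in the middle of the ranges of the other strains. The largest log2 difference between strain means was 0.095 (F-test adjusted p = 0.94), and no alternative called Junb in any comparison.

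Atf3, a stress-induced member of the ATF and CREB family, had the largest strain difference of the 12. Its signals were 556.4, 642.6, 612.1 and 673.3 in F344 and 274.3, 498.9, 391.7 and 353.8 in LEW. In COP they were 138.5, 138.3, 266.4 and 325.5, and in DA 226.1, 323.2, 526.3 and 303.5. The lowest F344 array was above the highest array of each other strain, and COP split into a low pair (replicates 1 and 2) and a higher pair. The low pair lay below 174, the signal that the filter required of a probe set's mean, so the differences from COP rest partly on low signals. Atf3 was 3.07-fold higher in F344 than in COP, a log2 difference of 1.62, with SE 0.27 (limma adjusted p = 0.000161), under every alternative that kept its probe set. It was 1.89-fold higher than in DA, a log2 difference of 0.91 (SE 0.27, adjusted p = 0.0227). The DA call was lost without F344 replicate 2 (0.053), F344 replicate 4 (0.0554), DA replicate 1 (0.0765), DA replicate 2 (0.0516) or DA replicate 4 (0.0533), in a range of 0.00484 to 0.0765. For LEW the log2 difference of 0.74 (SE 0.27) was not called (adjusted p = 0.0721), although no arrays overlapped, and it was called without COP replicate 4 (0.0471) or DA replicate 3 (0.0492) and with the 8 arrays of F344 and LEW alone (0.00704), in a range of 0.00704 to 0.191. The LEW difference was also called with the replicate block (limma adjusted p = 0.0394).

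Among the other strains Atf3 was higher in LEW than in COP by 0.88 (SE 0.27, adjusted p = 0.0309). This call was lost without LEW replicate 2 (0.107), LEW replicate 3 (0.0714), COP replicate 1 (0.111) or COP replicate 2 (0.117), and with no filter (0.0544), no intensity trend (0.0562) or the 8 arrays of the 2 strains alone (0.0656), in a range of 0.00639 to 0.117. COP minus DA was -0.70 (adjusted p = 0.0935), called without COP replicate 4 (0.0243) or DA replicate 1 (0.0444), in a range of 0.0243 to 0.288. LEW and DA differed by 0.18 (SE 0.27, adjusted p = 0.758).

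Egr1, the zinc finger factor induced through SRF, was lowest in LEW. Its signals were 7031, 6868, 6716 and 7108 in F344 and 4892, 5884, 5540 and 5241 in LEW. They were 7329, 6467, 7512 and 7380 in COP and 5247, 6770, 6551 and 6352 in DA. No LEW array reached an F344 or COP array, whereas the DA arrays overlapped those of LEW and F344. Egr1 was 1.29-fold higher in F344 than in LEW, a log2 difference of 0.37, with SE 0.075 (limma adjusted p = 0.00197), and 1.33-fold higher in COP than in LEW, a log2 difference of -0.41 for LEW minus COP (SE 0.075, adjusted p = 0.000529). Both calls held under all alternatives. F344 and COP, the highest pair of means, differed by -0.05 (SE 0.075, adjusted p = 0.726). LEW minus DA was -0.21 (adjusted p = 0.0925), called without DA replicate 1 (0.00848, in a range of 0.00848 to 0.238), and COP minus DA was 0.21 (0.0788), called without COP replicate 2 (0.0459, in a range of 0.0459 to 0.25).

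Nr4a1, the orphan receptor also called Nur77, was even within F344 and LEW and uneven within COP and DA. Its signals were 1674, 1629, 1490 and 1502 in F344 and 1083, 1178, 1199 and 1100 in LEW. They were 697.5, 1171, 1489 and 1659 in COP and 1047, 1564, 1657 and 1673 in DA. All F344 arrays were above all LEW arrays, while the COP arrays ranged from below LEW to the level of F344. The log2 difference of F344 and LEW was 0.46 (SE 0.19, limma adjusted p = 0.112) in the fit that shares its estimate of spread over the 4 strains, and was not called. With the 8 arrays of F344 and LEW alone it was called (adjusted p = 0.00104), and without COP replicate 1 as well (0.0168), in a range of 0.00104 to 0.212. F344 minus COP was 0.40 (adjusted p = 0.15), called without COP replicate 4 (0.0412, in a range of 0.0412 to 0.546). The F-test (adjusted p = 0.138) called it without COP replicate 1 (0.0382), COP replicate 4 (0.0477) or DA replicate 1 (0.0491), in a range of 0.0382 to 0.229.

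Ier3, an early response gene that protects cells from apoptosis, was highest in F344 and lowest in LEW. Its signals were 3151, 3451, 3437 and 3539 in F344 and 1588, 2012, 1857 and 2203 in LEW. They were 2614, 2320, 2939 and 2342 in COP and 2510, 1976, 2969 and 2584 in DA. No array of another strain reached the lowest F344 array. Ier3 was higher in F344 than in LEW by a log2 difference of 0.83, with SE 0.11 (limma adjusted p = 1.59e-05), than in COP by 0.42 (SE 0.11, 0.0103) and than in DA by 0.45 (SE 0.11, 0.0076). These 3 calls held under every alternative. LEW was lower than COP by -0.42 (adjusted p = 0.0125), a call lost without LEW replicate 1 (0.0556) or COP replicate 3 (0.0543), in a range of 0.00446 to 0.0556. LEW was lower than DA by -0.39 (0.0276), lost without LEW replicate 1 (0.0912) or LEW replicate 3 (0.0625), and without DA replicate 1 (0.0554), DA replicate 3 (0.111) or DA replicate 4 (0.0724), with no intensity trend (0.0625) and with the 8 arrays of the 2 strains alone (0.0732), in a range of 0.00322 to 0.111. COP and DA, neighbours in the order, differed by 0.03 (SE 0.11, 0.893).

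Ier2, a nuclear protein of the same class, differed little. Its arrays spanned 1753 to 2001 in F344 and 1635 to 1926 in LEW. They spanned 1898 to 2252 in COP and 1541 to 1855 in DA. Only COP and DA did not overlap, with a log2 difference of 0.25, with SE 0.077 (limma adjusted p = 0.036). That call was lost without COP replicate 2 (0.0747), COP replicate 3 (0.118), DA replicate 1 (0.0737), DA replicate 3 (0.061) or DA replicate 4 (0.114), and with median centring of the arrays (0.0808), no intensity trend (0.0536) or the 8 arrays of the 2 strains alone (0.0677), in a range of 0.0213 to 0.118. The F-test (adjusted p = 0.0703) called Ier2 without DA replicate 2 (0.0405) or with the replicate block (0.0475), in a range of 0.0405 to 0.186.

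Dusp1, the MAP kinase phosphatase, was low in COP at the brighter of its probe sets, 1368146_at. This probe set had signals of 8748, 8272, 9120 and 7904 in F344 and 6880, 6527, 7666 and 6989 in LEW. It had 3335, 3023, 4833 and 5173 in COP and 6243, 6399, 8124 and 8171 in DA. Every COP array was below every array of the other strains. The log2 differences were 1.09 for F344 minus COP (SE 0.13, limma adjusted p = 3.9e-06), 0.81 for LEW minus COP (SE 0.13, 0.000159) and -0.85 for COP minus DA (SE 0.13, 0.000141), and all 3 calls held under every alternative. F344 and LEW did not overlap but their difference of 0.28 (SE 0.13) was not called (0.183), except with the 8 arrays of those strains alone (0.0105, in a range of 0.0105 to 0.331).

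The other Dusp1 probe set, 1368147_at, ordered the strains differently. Its means were 989.5 ± 102 in F344 and 842.4 ± 42.9 in LEW, and 767.9 ± 125 in COP and 740.5 ± 141 in DA (SD, n = 4), so DA and not COP was lowest. COP minus DA was 0.06 (SE 0.13, adjusted p = 0.832) here, against -0.85 at 1368146_at. The array deviations from the strain means of both probe sets correlated at r = 0.588 over the 16 arrays. F344 was higher than COP by 0.37 (SE 0.13, 0.0484), a call lost under 15 of 27 alternatives, among them leaving out F344 replicate 1 (0.128), F344 replicate 2 (0.0999), F344 replicate 4 (0.106), COP replicate 1 (0.161), COP replicate 2 (0.111), COP replicate 3 (0.0721), DA replicate 2 (0.0553), DA replicate 4 (0.053) or any 1 LEW array (0.0512 to 0.056), and with no filter (0.0753) or no intensity trend (0.0687), in a range of 0.0174 to 0.161. F344 was higher than DA by 0.43 (SE 0.13, 0.0274), lost without F344 replicate 1 (0.0824), F344 replicate 2 (0.0625), F344 replicate 4 (0.0663), DA replicate 1 (0.0973) or DA replicate 2 (0.0659), in a range of 0.00905 to 0.0973. Its F-test (0.0508) was called without F344 replicate 3 (0.0355), COP replicate 4 (0.0229) or DA replicate 3 (0.018), in a range of 0.018 to 0.143. It was also called with quantile normalization (0.0414), median centring (0.0481), the pseudocount (0.0499), a filter at the 60th percentile (0.0469) or robust moderation (0.0493).

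**Figure D2:**
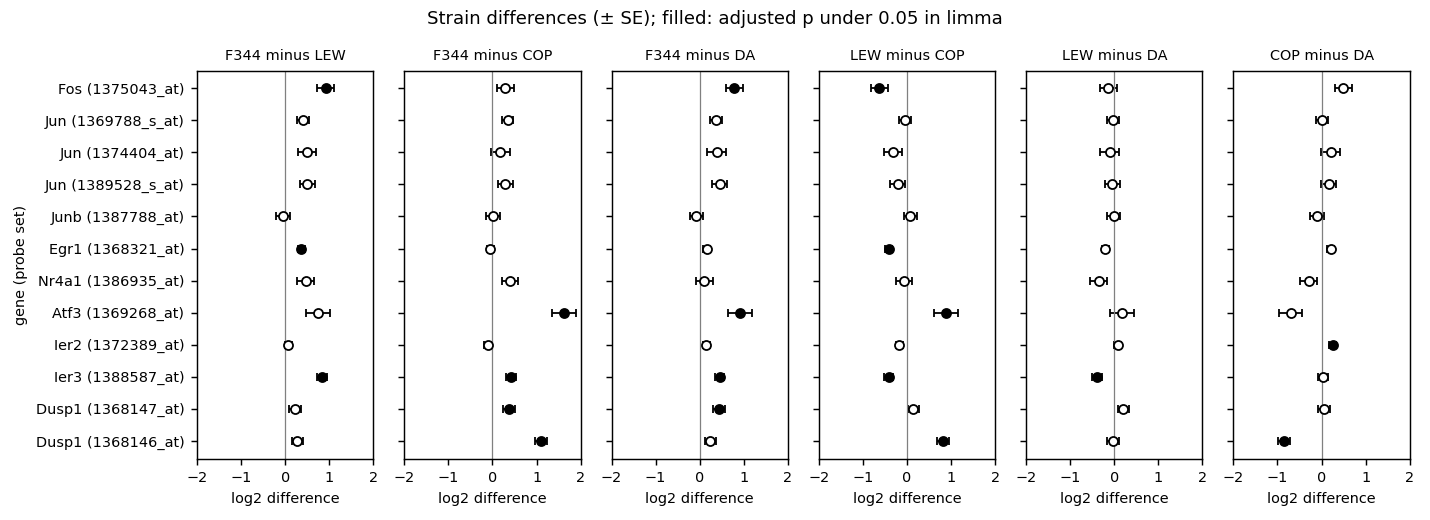
Log2 difference of each kept probe set (rows) in the 6 strain comparisons (panels), with the standard error of the limma fit as a bar; filled points had an adjusted p under 0.05. In the 3 panels of F344 the filled points all lie to the right of 0, and the largest is Atf3 in F344 minus COP at 1.62.

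Cell type markers differed between the strains beside these genes, and their part in the differences was not tested. All 5 kept B lymphoid markers were called lower in F344 than in LEW, COP and DA, where 7.54%, 10.6% and 9.20% of all 10548 genes were called lower, and the mean log2 level of the list, relative to its mean over all arrays, was -0.69 to -0.55 in F344 and -0.35 to 0.13 in DA, and 0.34 to 0.41 in LEW and 0.16 to 0.42 in COP. Of 10 kept erythroid markers, 6 were called lower in F344 than in LEW, 2 than in COP and 4 than in DA, and the list level was -0.27 to -0.11 in F344 and 0.03 to 0.24 in LEW. Of 11 kept monocyte and macrophage markers, 7 were called higher in F344 than in LEW (6.96% of all genes), with list levels of 0.11 to 0.21 and -0.19 to -0.03. Of 6 kept neutrophil markers, 5 were called lower in F344 than in COP, with list levels of -0.35 to -0.29 and 0.29 to 0.34. Of 11 skeletal muscle and 10 adipocyte markers, 4 and 5 were called higher in F344 than in COP (10.4% of all genes), and 5 and 4 were called lower in COP than in DA (6.42%). The muscle marker Myh1 went the other way, higher in COP than in DA by 0.77 (limma adjusted p = 3.63e-06). The kept markers all had a mean signal above the filter of 174.

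The part of the variation that lay between strains differed from gene to gene. The share of the sum of squares between strains was 81.1% for Dusp1 (1368146_at), 78.1% for Ier3, 73.1% for Egr1, 68.6% for Atf3 and 61.0% for Fos. It was 52.5% for Ier2, 47.6% for Dusp1 (1368147_at), 28.0% to 39.5% for the 3 Jun probe sets, 32.1% for Nr4a1 and 3.50% for Junb. The median was 50.05% over the 12 and 39.4% over all tested probe sets. Egr1 combined a high share with a small spread, an SD within strains of 0.113 on the log2 scale at the 25.6th percentile of all tested probe sets. Atf3 and Fos combined a high share with a large one, 0.449 at the 98.1st percentile and 0.342 at the 93.1st. Nr4a1, at 0.326 and the 91.7th percentile, had a large spread and no called strain difference.

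**Figure D3:**
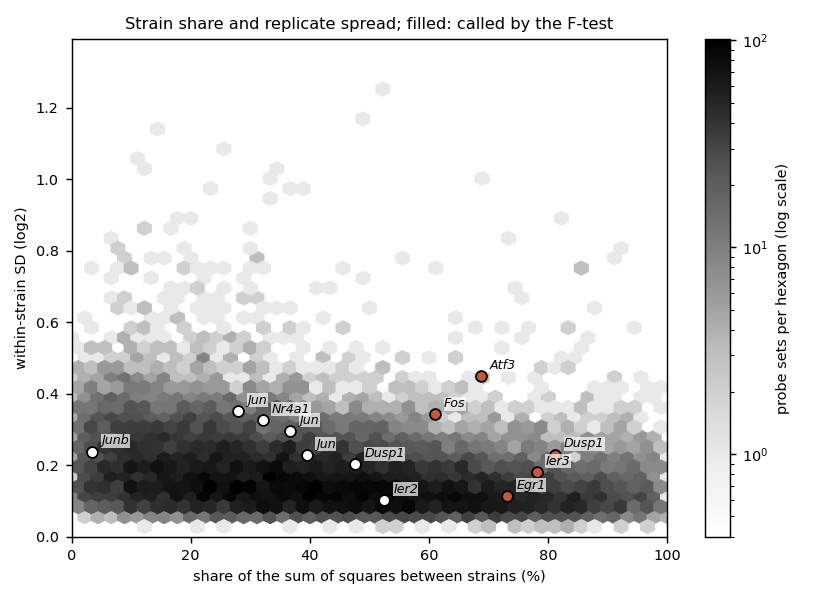
Share of the sum of squares between strains (horizontal, %) and SD within strains (vertical, log2) of all tested probe sets as shaded hexagons and of the 12 immediate early probe sets as circles, filled where the F-test called them. Atf3 and Fos lie above the dense part of the cloud at shares of 68.6% and 61.0%, and Junb lies at the left edge at 3.50%.

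The spread between arrays of a strain was unequal between strains for these genes. The median SD of log2 signals over the 12 probe sets was 0.0821 in F344 and 0.185 in LEW, and reached 0.240 in COP and 0.303 in DA, where over all tested probe sets it was 0.121, 0.154, 0.136 and 0.150. In F344, 2 of the 12 were above the median of all tested probe sets, in LEW 7, in COP 10 and in DA 11. The highest single values were 0.525 for Fos in LEW, 0.640 for Atf3 in COP and 0.560 for Jun (1374404_at) in DA, and the highest in F344 was 0.241, for the same Jun probe set. Nr4a1 had an SD of 0.0721 in LEW and 0.556 in COP. No test of unequal spread was run.

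**Figure D4:**
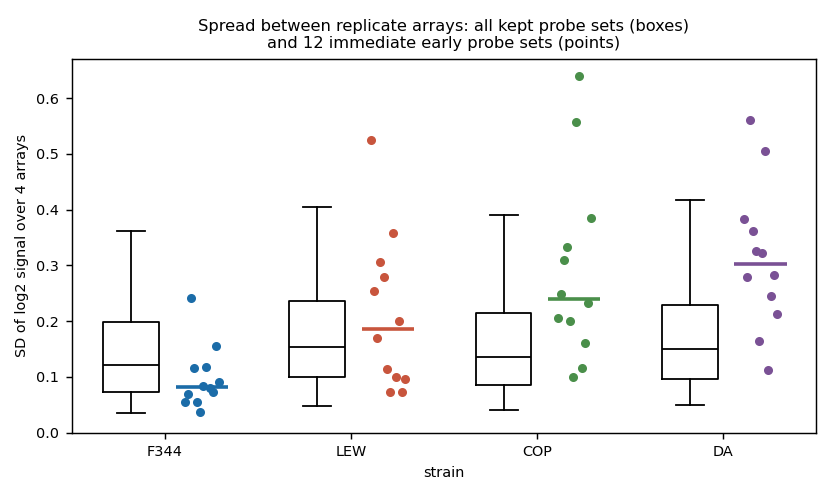
SD of log2 signals over the 4 arrays of each strain, for all tested probe sets as boxes (quartiles, with whiskers at the 5th and 95th percentiles) and for the 12 immediate early probe sets as points with their median as a line. The line lies below the box median in F344 (0.0821 against 0.121) and above it in LEW, COP and DA (0.303 against 0.150 in DA).

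Within a strain the genes tended to be high or low on the same arrays. With each gene represented by its brightest kept probe set and set against its strain mean, DA replicate 1 was below the mean for 8 of 9 genes, by -0.31 on average on the log2 scale, and DA replicate 3 above it for 9 of 9, by 0.22. COP replicates 1 and 2 were below for 7 of 9 genes each (-0.23 and -0.14), and COP replicate 3 above for 9 of 9 (0.23). COP replicate 4 was above for 5 of 9 (0.14), with Atf3 at 0.69 and Fos at -0.18. LEW replicate 2 was above for 8 of 9 (0.19), and LEW replicate 1 below for 6 of 9 (-0.12). In F344 each array was above for 4 or 5 of 9 genes, with averages between -0.0080 and 0.018. Over all tested probe sets, 47.8% to 52.4% lay above the strain mean on each array.

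Other measures of the same arrays are given beside these deviations, and their part in them was not tested. Cartilage markers moved the other way in COP, with mean deviations of 0.41 and 0.17 on replicates 1 and 2 and of -0.088 and -0.50 on replicates 3 and 4. They were at -0.41 on LEW replicate 1, 0.11 on LEW replicate 2, -0.20 on LEW replicate 3 and 0.51 on LEW replicate 4. On DA replicates 1 and 3, where all but 1 and all of the 9 genes deviated one way, they were at 0.099 and -0.093. Skeletal muscle markers were at -0.21 and 0.11 on COP replicates 1 and 3 and at -0.074 and -0.037 on DA replicates 1 and 3, and adipocyte markers at -0.043, -0.10, 0.24 and -0.095 on COP replicates 1 to 4 and at -0.15 and 0.064 on DA replicates 1 and 3. B lymphoid markers were at -0.25, 0.24, -0.11 and 0.12 on DA replicates 1 to 4 and at 0.065, 0.057, -0.19 and 0.063 on COP replicates 1 to 4. The lists for erythroid cells, neutrophils, monocytes and macrophages, osteoblasts and endothelium deviated by -0.12 to 0.19 over the 16 arrays. The Gapdh ratio of 3' to 5' signal was 0.996, 1.03, 1.03 and 0.970 on COP replicates 1 to 4 and 1.04 and 1.01 on DA replicates 1 and 3. The 14 other immediate early transcription factors above the filter deviated on average by -0.15, 0.012, -0.037 and 0.18 on LEW replicates 1 to 4. They were at -0.036, -0.099, 0.025 and 0.11 on COP replicates 1 to 4, and at -0.16, -0.0060, 0.12 and 0.046 on DA replicates 1 to 4. The labels gave no extraction, labelling or scan batch, so none could be entered.

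**Figure D5:**
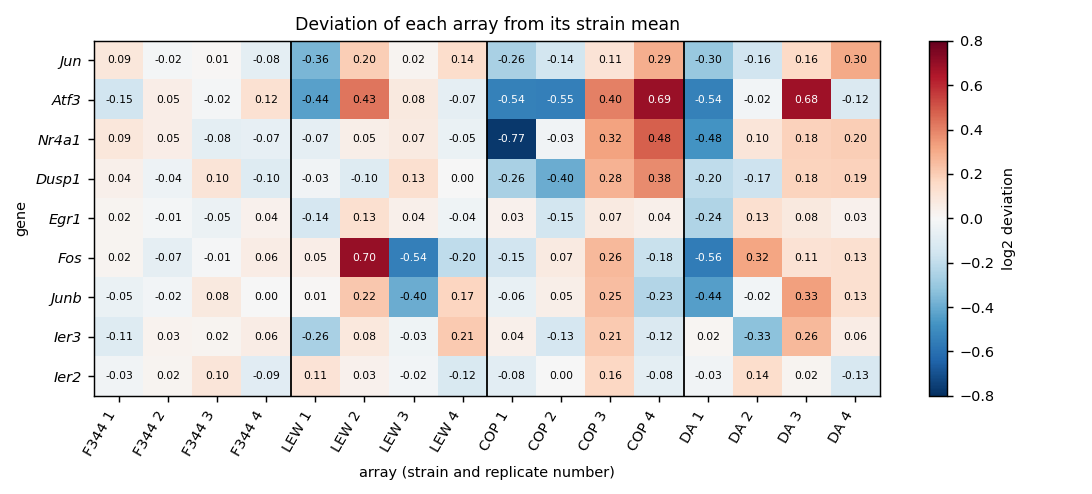
Log2 deviation of each array (columns, by strain and replicate number) from its strain mean for the 9 immediate early genes (rows), printed in each cell and coloured from blue (below) to red (above). The F344 columns are pale, DA replicate 1 is blue for 8 of 9 genes, and COP replicate 3 and DA replicate 3 are red for all 9.

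Jun, Atf3, Nr4a1 and Dusp1 deviated together. Their 6 pairs had Pearson r of 0.704 to 0.745 and Spearman rho of 0.579 to 0.735 for the deviations from strain means over the 16 arrays, which all genes share. Without the 2 arrays farthest from the median, r was 0.601 to 0.777. Without the COP arrays it was 0.355 to 0.666, lowest for Atf3 and Dusp1, and without the DA, LEW or F344 arrays it was at least 0.614. Egr1 correlated with Atf3 at 0.686 and with Jun at 0.579. Fos correlated with Junb at 0.759 and with Egr1 at 0.547, but with Jun at 0.28. Ier2 and Ier3 had no r over 0.5 with another of the 9. In all, 10 of 36 pairs had r over 0.5, or 27.8%, and 88.9% were above 0, where 5.60% of all pairs of tested genes had r over 0.5 and 49.99% were above 0. These are descriptions over 16 arrays of 4 strains, with no test, and the 4 genes were singled out after their values were seen.

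Of all 10547 other genes, those most like Fos by this measure were Ciao1 (r = 0.88), Psma1 (0.83), Notch1 (0.82), Zfp706 (0.78), Cngb1 (0.76) and Junb (0.76, rank 6). For Egr1 they were Hrg (0.92), Slc25a30 (0.86), C11h21orf91 (0.85), Il7r (0.82), Iars2 (0.81) and Itgb3bp (0.81), with Atf3 at rank 45 and Jun at rank 213. Jun, Nr4a1 and Dusp1 were at ranks 25, 31 and 37 in the order of likeness to Atf3.

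Genes that belong to the same response but not to the 10 were counted from lists. Of all 10548 genes, 32.9% were called by the F-test. Of 20 other immediate early transcription factors, all named on the array, 14 were above the filter and 5 of these were called. Bhlhe40, a helix-loop-helix repressor, was lower in DA, with signals of 594.5 ± 64.6 in F344 and 298.8 ± 15.4 in DA (SD, n = 4), a log2 difference of 0.99 (limma adjusted p = 3.23e-05). Mafk, a small Maf protein that dimerizes with leucine zipper factors, was lower in F344 than in LEW by -0.44 (adjusted p = 0.00329), and Csrnp1 lower in F344 than in COP by -0.53 (0.00706). For F344 minus LEW, 3 of the 14 were called higher and 1 lower, where 6.96% and 7.54% of all genes were, with a median of 0.16. For F344 minus DA, 3 were called higher (8.11% of all genes), and for F344 minus COP, 1 was called lower (10.6%). For F344 minus COP and DA the medians were 0.02 and 0.19, where the medians over all genes were 0.012, 9.32e-05 and -0.00061.

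Of 30 feedback and other rapid response genes, 29 were named on the array, 25 were above the filter and 7 were called. Sgk1, a kinase induced by serum and glucocorticoids, was higher in F344, with signals of 6763 ± 415 against 4872 ± 448 in LEW (SD, n = 4), by a log2 difference of 0.48 (limma adjusted p = 0.000313), and by 0.47 against COP (0.000277) and 0.30 against DA (0.0139). Gadd45g, a stress-inducible growth arrest gene, was higher in F344 than in DA by 0.59 (0.0018). Nfkbiz, a nuclear regulator of NF-kappaB, was called by the F-test (0.0193) with its highest mean in LEW. The median log2 differences of the list were 0.10, 0.11 and 0.09 for F344 minus LEW, COP and DA. For F344 minus COP, 2 of the 25 were called higher and 3 lower, where 10.4% and 10.6% of all genes were. For F344 minus LEW, 4 were called higher (6.96% of all genes) and 0 lower (7.54%). For F344 minus DA, 5 were called higher (8.11%) and 1 lower (9.20%). Of 15 rapid response secreted proteins, 13 were named on the array, 6 were above the filter and 2 were called: Ccn1, an SRF target, was at 122.7 ± 45.6 in LEW and 1305 ± 61.6 in F344 (SD, n = 4), and Il1b, an inflammatory cytokine, was lower in F344 than in DA by -0.62 (0.00411).

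Of 25 kinases and factors upstream of these genes, 17 were named on the array and all 17 were above the filter. The F-test called 3 of them, or 17.65%, where 32.9% of all genes were called. Creb1, the factor that binds the cyclic AMP response element, had signals of 2543 ± 117 in F344 and 2662 ± 334 in COP, and of 1458 ± 82.5 in LEW and 1423 ± 40.9 in DA (SD, n = 4), so F344 and COP stood above LEW and DA. Its log2 difference was 0.80 for F344 minus LEW (limma adjusted p = 2.8e-07) and 0.84 for F344 minus DA (1.77e-07). Mef2c, a muscle and bone transcription factor, was higher in F344 than in COP by 0.97 (1.63e-08), and Mapk14, the p38 kinase that Dusp1 can inactivate, was higher in F344 than in COP by 0.26 (0.00802). Srf, whose CArG box Egr1 carries, was not called (F-test adjusted p = 0.38), with log2 differences of 0.0032, -0.029 and -0.12 for F344 minus LEW, COP and DA. The list medians were 0.01, 0.02 and 0.07 for F344 minus LEW, COP and DA.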

How the data were processed

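The authors' deposited intensity values are 1 linear MAS5 signal per probe set and array, per the submitters' processing notes; the version, scaling target and detection calls are not given in the sources used. The 2% trimmed mean was about 1000 on every array. Of 31099 probe sets, 57 controls were left out; 20826 of the others had 1 platform symbol, 436 several and 9780 none. Signals below 1 were set to 1 (255 values), log2 was taken, and probe sets with a mean under the 40th percentile (signal 174) were left out, keeping 18625. Strain means were fitted to the 16 arrays with limma 3.58.1 (R 4.3.3, intensity trend, 12 residual degrees of freedom), giving the F-test and 6 contrasts; two-sided p-values were Benjamini-Hochberg adjusted over the 18625, and an adjusted p under 0.05 was called. The fit was tested on simulated data in which each probe set had the same spread in all 4 strains. The simulation therefore cannot show how the fit behaves with the unequal spread of these genes. The number of arrays limits the precision. All 14 member probe sets are named; from each related list up to 3 genes called by the F-test with the largest range of strain means, and for Fos and Egr1 the 6 most alike genes. Srf was added after its values were seen. The members and lists were chosen with earlier results of these data known. Gene identifiers were matched to RefSeq (GRCr8) for 20758 probe sets. Alternatives were quantile normalization or median centring, a pseudocount (19.3), no filter or the 60th percentile, moderation without trend or robust, array weights, a replicate block, an adjusted p under 0.10, the 8 arrays of a strain pair alone, and leaving out each array.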

Additional observations from a re-analysis of the deposited data

Results flagged for a closer look

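In the 12 kept probe sets, 48 groups of 4 arrays were examined for a single array far from the other 3 (a gap to the nearest array, as a share of the group's range on the log2 scale, above Dixon's critical value for 4), and 3 were found; chance gives about 1 in 20 groups. Jun (1389528_s_at) on LEW replicate 1 had a signal of 1254, where the other LEW arrays had 1881 to 1979 (0.888 of the range). Egr1 on COP replicate 2 had 6467, where the other COP arrays had 7329 to 7512 (0.835). Nr4a1 on DA replicate 1 had 1047, where the other DA arrays had 1564 to 1673 (0.856). Each of the 3 was the lowest array of its strain. DA replicate 1 was also the lowest DA array for Fos, Junb, Egr1, Atf3, both Dusp1 probe sets and Jun (1369788_s_at and 1374404_at), and LEW replicate 1 the lowest LEW array for all 3 Jun probe sets, Egr1, Nr4a1, Atf3 and Ier3.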

How the results depend on the processing

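Of 19 called strain differences, 11 were called under every alternative and 8 were lost under 1 or more; of 53 not called, 15 were called under 1 or more. No called difference changed its sign. The counts of called probe sets, of 12, were 3, 4 and 4 for F344 minus LEW, COP and DA, 5 for LEW minus COP, 1 for LEW minus DA, 2 for COP minus DA and 5 in the F-test. With the 8 arrays of each pair alone they were 9, 6 and 6 for F344 minus LEW, COP and DA. For LEW minus COP, LEW minus DA and COP minus DA they were then 3, 0 and 1. Without an intensity trend in limma they were 3 for LEW minus COP, 0 for LEW minus DA and 1 for COP minus DA. Where limma called 0 for LEW minus DA, 3 had an unadjusted p under 0.05 with the 8 arrays alone and 2 without the trend. With no filter LEW minus COP had 3, and with median centring COP minus DA had 1; median centring moved the strain share of Ier2 from 52.5% to 41.2%. At an adjusted p under 0.10 the counts were 6, 5 and 6 for F344 minus LEW, COP and DA. They were 2 for LEW minus DA, 4 for COP minus DA and 9 in the F-test. Leaving out each array in turn gave 3 to 6 for F344 minus LEW, 3 to 6 for F344 minus COP, 2 to 6 for F344 minus DA, 3 to 5 for LEW minus COP, 0 to 1 for LEW minus DA (with 1 to 3 at an unadjusted p under 0.05 where limma called 0), 1 to 3 for COP minus DA and 5 to 8 in the F-test. The cause of these changes was not tested. The share of all tested probe sets called was not counted under any alternative, so these counts have no background beside them.

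Over all tested probe sets, deviations of same-numbered arrays correlated at -0.173 to 0.0875 (24 pairs, median -0.0019) and those of other numbers at -0.152 to 0.207 (72 pairs, median -0.0024). Such correlations cannot show whether same-numbered arrays shared handling that touched only the 9 genes. Those genes deviated on average by -0.0080, -0.12, -0.23 and -0.31 on replicate 1 of F344, LEW, COP and DA. On replicate 2 they deviated by -0.0015, 0.19, -0.14 and -0.0016. On replicate 3 they deviated by 0.018, -0.072, 0.23 and 0.22. On replicate 4 the values were -0.0080, 0.0043, 0.14 and 0.088. The part of the replicate number in these deviations was not tested. With the replicate block the count was 6 for F344 minus LEW, 6 for F344 minus DA and 8 in the F-test. Dusp1 (1368147_at) was then no longer called for F344 minus COP (limma adjusted p = 0.0504).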

Other observations

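Heat shock and chaperone genes respond to stress by another route. Of 15 listed, 12 were named on the array, all 12 were above the filter and 4 were called by the F-test (33.3%), near the 32.9% of all genes. Of the 12, 3 were called higher in F344 than in COP (10.4% of all genes), and 3 were called lower in COP than in DA (6.42%). Between F344 and DA, 2 were called higher in F344 (8.11%) and 1 lower (9.20%). Hspb1, a small heat shock protein, had signals of 8485 ± 631 in F344 and 8821 ± 514 in DA, and of 7508 ± 1269 in LEW and 6238 ± 1059 in COP (SD, n = 4), a log2 difference of 0.46 for F344 minus COP (limma adjusted p = 0.0056). Cryab, a small heat shock protein abundant in muscle, was higher in F344 than in COP by 0.51 (0.00172), and Dnajb4, a co-chaperone, by 0.35 (0.000283). Of 11 skeletal muscle markers, 4 were also called lower in COP than in F344, and their part in this was not tested.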
